A study of Mus musculus with 8 samples.

Results

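Fibrillar collagen chains are the gene products that assemble into the load-bearing fibrils of tendon. The 10 chain genes described here (Col1a1, Col1a2, Col3a1, Col5a1, Col5a2, Col5a3, Col11a1, Col11a2, Col24a1 and Col27a1) were chosen by gene symbol, and all 10 were found among the 24982 genes of the count table. All 10 also passed the filter on low counts that left 13125 genes for testing, so none dropped out. They encode the chains of collagens I, III, V, XI, XXIV and XXVII.

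RNA was sequenced from cultured tail tendon fibroblasts of C57Bl/6 mice, also called tenocytes. A set of 4 libraries came from cells that kept scleraxis (genotype Scx+, numbered 2, 3, 5 and 6, called Scx-positive here) and 4 from cells in which it was deleted (genotype Scx-, numbered 2, 3, 4 and 5, called Scx-deleted). Both groups carried the same 4HT treatment label, so the agent does not distinguish them. The promoter or Cre driver behind the deletion, the deleted part of Scx and the age of the mice are not given in the labels. The series asks which mRNAs differ between tenocytes with and without Scx, the gene of the tendon transcription factor scleraxis, a basic helix-loop-helix protein. The labels do not tie the libraries of a group to separate animals or cultures. The p-values therefore measure only how these libraries spread, and that spread may be technical.

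Each fibrillar collagen is made as a procollagen whose chains wind into a triple helix in the endoplasmic reticulum, are secreted, lose their end propeptides and then pack side by side into fibrils that are cross-linked outside the cell. Type I collagen, built from the products of Col1a1 and Col1a2, is the bulk of tendon fibrils, and type III, built from Col3a1 chains alone, is typical of thin fibrils and of healing tendon. Types V and XI are minor partners that start fibrils and restrain their width.

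Scx itself separated the libraries, with 6.82 to 10.1 CPM (counts relative to library size, scaled by TMM factors) in the Scx-positive group and 0.0468 to 0.152 CPM in the Scx-deleted group. Depth lay between 17343228 and 25180790 gene counts. Scx-positive 5 differed most within its group, with a chi-square per gene of 11.5 to 13.3 against each of the others, where the pairs without it gave 2.42 to 4.52. It was the highest Scx-positive library for 7 of the 10 chains, and values without it are given where they matter.

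Of the 10 chains, 8 were lower in Scx-deleted cells and 0 higher at an adjusted p under 0.05 in edgeR's quasi-likelihood F test with the Benjamini-Hochberg method. Across all 13125 tested genes, 14.5% were called lower and 14.0% higher. Every Scx-deleted library lay below every Scx-positive library for those 8 chains, an order met by 14.3% of all tested genes, and the groups were apart in either direction in 29.1%. The log2 change was below 0 for all 10 chains and ranged from -1.14 to -0.18. Its median was -0.50, against -0.01 over all tested genes, and the median absolute log2 change of called genes was 0.31. Without Scx-positive 5, 8 chains were again lower and 0 higher. In cultured cells measured in bulk, fewer cells of a type and less RNA per cell cannot be told apart.

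The sequences just upstream of the chains with the 3 largest falls, Col3a1, Col11a1 and Col24a1, are shown because Scx belongs to a family of proteins that bind E-boxes, sites with the letters CANNTG. They are the 250 bases before the gene start on the plus strand, from the RefSeq promoter table on GRCm38.p6, at chr1:45311288-45311537 for Col3a1, chr3:114030290-114030539 for Col11a1 and chr3:145292222-145292471 for Col24a1. They are printed 5′ to 3′, and capitals mark each CANNTG, which reads the same on both strands.
Col3a1: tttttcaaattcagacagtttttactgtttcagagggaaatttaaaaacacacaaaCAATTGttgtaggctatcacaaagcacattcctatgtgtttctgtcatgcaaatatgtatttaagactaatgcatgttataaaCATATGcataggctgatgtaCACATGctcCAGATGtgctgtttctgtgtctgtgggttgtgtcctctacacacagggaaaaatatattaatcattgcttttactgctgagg
Col11a1: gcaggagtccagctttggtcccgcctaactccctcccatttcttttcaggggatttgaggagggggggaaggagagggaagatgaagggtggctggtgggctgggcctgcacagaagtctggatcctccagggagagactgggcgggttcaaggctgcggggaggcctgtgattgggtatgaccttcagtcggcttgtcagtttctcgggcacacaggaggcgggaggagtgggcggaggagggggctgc
Col24a1: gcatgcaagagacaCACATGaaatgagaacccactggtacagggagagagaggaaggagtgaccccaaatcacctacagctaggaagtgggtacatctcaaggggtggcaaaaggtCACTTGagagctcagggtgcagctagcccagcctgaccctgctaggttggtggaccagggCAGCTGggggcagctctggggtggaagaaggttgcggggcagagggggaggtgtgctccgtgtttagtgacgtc

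Col3a1 carried 4 matches in this window (starting 194, 111, 91 and 82 bases before the gene start), and 3.84% of 32851 RefSeq promoters of the same length carried at least 4. Col24a1 carried 3, a number reached or passed by 12.2% of promoters, and Col11a1 carried none. Col1a1 and Col5a2 had no entry in the promoter table and were not searched. Of the 8 chains with an entry in the table, 5 had at least 1 CANNTG, against 66.2% of all promoters. Col5a3, Col11a2 and Col27a1 were the other 3, with 1 match each.

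RefSeq and GENCODE place some gene starts differently, and distances here are from the RefSeq start. The windows of Col1a2 and Col27a1 lie inside the GENCODE genes given below, and the window of Col11a2 ends before its GENCODE start without reaching it. Other short letter runs were counted in the same windows on both strands. CAGATG, which is itself a CANNTG, was in the Col3a1 window (its match nearest the gene start) and in no other of the 8, and in 14.4% of promoters. CCAAT was in the windows of Col11a1, Col1a2 and Col5a3, against 33.8% of promoters, and TATAAA in those of Col3a1 and Col11a2, against 12.4%. The Col3a1 window had a GC content of 35.2%, the lowest of the 8, which otherwise ranged from 57.6% to 76.4%. These are matches of letters, and binding was not measured.

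Both type I chains fell, Col1a1 further than Col1a2. Col1a1 (ENSMUSG00000001506.10, chromosome 11, 94936224 to 94953042, plus strand, GRCm38) stood at 3600, 3540, 4643 and 3899 CPM in Scx-positive libraries 2, 3, 5 and 6 and at 2961, 2594, 2637 and 2616 CPM in Scx-deleted libraries 2, 3, 4 and 5. The groups did not overlap, and the level went from 3921 ± 507 to 2702 ± 173 CPM (SD, n = 4 each). The log2 change was -0.54 ± 0.07 (SE; edgeR quasi-likelihood F test, Benjamini-Hochberg adjusted p = 6.07e-05).

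Col1a2 (ENSMUSG00000029661.16, chromosome 6, 4504814 to 4541544, plus strand) encodes the partner chain of the type I helix. It stood at 3157, 3192, 3855 and 3373 CPM in the Scx-positive and 2762, 2489, 2573 and 2451 CPM in the Scx-deleted libraries, again with no overlap. The log2 change was -0.40 ± 0.06 (SE; edgeR quasi-likelihood F test, Benjamini-Hochberg adjusted p = 0.000142). Scx-positive 5 was the highest library for both type I chains. Without it the log2 changes were -0.44 for Col1a1 and -0.33 for Col1a2.

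Col3a1 (ENSMUSG00000026043.18, chromosome 1, 45311538 to 45349706, plus strand) had the largest fall of the 10 chains. It stood at 1495, 1525, 1914 and 1534 CPM in the Scx-positive and 794, 727, 726 and 698 CPM in the Scx-deleted libraries. The highest Scx-deleted library was thus well below the lowest Scx-positive library. The Scx-deleted mean was 45.5% of the Scx-positive mean, and the log2 change was -1.14 ± 0.07 (SE; edgeR quasi-likelihood F test, Benjamini-Hochberg adjusted p = 2.26e-08). Without Scx-positive 5 the log2 change was -1.04.

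The 3 chains of type V collagen, which starts and narrows type I fibrils, fell by unequal amounts. Col5a1 (ENSMUSG00000026837.15, chromosome 2, 27886425 to 28039514, plus strand) encodes its most common chain and stood at 1818, 1793, 2277 and 1979 CPM in the Scx-positive and 1551, 1415, 1345 and 1388 CPM in the Scx-deleted libraries. The groups did not overlap, and the log2 change was -0.47 ± 0.07 (SE; edgeR quasi-likelihood F test, Benjamini-Hochberg adjusted p = 0.000101). Leaving out Scx-positive 5 gave a log2 change of -0.38.

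Col5a2 (ENSMUSG00000026042.16, chromosome 1, 45374321 to 45503282, minus strand), the partner of Col5a1 in most type V helices, stood at 4484, 4605, 5287 and 4867 CPM in the Scx-positive and 4401, 4155, 4306 and 4122 CPM in the Scx-deleted libraries. The groups came close, with the highest Scx-deleted library, number 2, just under the lowest Scx-positive library, also number 2. Its log2 change of -0.18 ± 0.05 (SE) was the smallest of the 10 in size, with an edgeR quasi-likelihood F test that gave a Benjamini-Hochberg adjusted p of 0.0170. The call was lost without Scx-deleted 3 (adjusted p = 0.0554 by edgeR) or Scx-deleted 5 (adjusted p = 0.0603 by edgeR). Leaving out Scx-positive 5 gave a log2 change of -0.13, still called.

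Col5a3 (ENSMUSG00000004098.7, chromosome 9, 20770050 to 20815067, minus strand) encodes a chain found in a less common form of type V. It was present at a far lower count, with 52.7, 51.5, 67.4 and 47.2 CPM in the Scx-positive and 37.7, 34.0, 45.4 and 34.9 CPM in the Scx-deleted libraries. Scx-deleted 4 was the nearest to the Scx-positive group and did not reach it. The log2 change was -0.53 ± 0.10 (SE; edgeR quasi-likelihood F test, Benjamini-Hochberg adjusted p = 0.00108). Leaving out Scx-positive 5 gave a log2 change of -0.41.

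Of the 2 type XI chains in the set, which are best known from cartilage fibrils, Col11a1 (ENSMUSG00000027966.20, chromosome 3, 114030540 to 114220718, plus strand) fell. The Scx-positive libraries held 47.6, 47.6, 46.4 and 48.3 CPM and the Scx-deleted libraries 24.8, 28.3, 27.0 and 25.1 CPM. Both groups were tight, with 47.5 ± 0.782 and 26.3 ± 1.68 CPM (SD, n = 4 each). Scx-positive 5 was the lowest of its group here, where it was the highest for types I, III and V. The log2 change was -0.85 ± 0.05 (SE; edgeR quasi-likelihood F test, Benjamini-Hochberg adjusted p = 3.13e-08).

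Col11a2 (ENSMUSG00000024330.17, chromosome 17, 34039437 to 34066685, plus strand), the partner chain, rested on 26 to 64 counts per library. It stood at 2.64, 2.09, 2.58 and 1.97 CPM in the Scx-positive and 2.28, 1.68, 1.51 and 1.57 CPM in the Scx-deleted libraries. Scx-deleted 2 lay within the range of the Scx-positive group. The log2 difference of -0.40 ± 0.17 (SE) did not pass the test, with a Benjamini-Hochberg adjusted p of 0.0963 in edgeR's quasi-likelihood F test, but did so without Scx-deleted 2 (adjusted p = 0.0388 by edgeR).

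The remaining chains belong to collagens XXIV and XXVII, later-described fibrillar types that were scarce here. Col24a1 (ENSMUSG00000028197.4, chromosome 3, 145292472 to 145552011, plus strand) had 26, 20, 15 and 19 counts in the Scx-positive and 9, 9, 8 and 12 counts in the Scx-deleted libraries. The groups did not overlap in CPM, at 0.604 to 1.13 and 0.421 to 0.540. The log2 change was -0.92 ± 0.27 (SE; edgeR quasi-likelihood F test, Benjamini-Hochberg adjusted p = 0.0191). The call was lost without Scx-positive 2 (adjusted p = 0.0689 by edgeR), without Scx-deleted 3 (adjusted p = 0.0535 by edgeR) and with DESeq2 (adjusted p = 0.0623).

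Col27a1 (ENSMUSG00000045672.15, chromosome 4, 63214004 to 63334991, plus strand) stood at 3.25, 3.64, 4.59 and 3.41 CPM in the Scx-positive and 2.94, 2.48, 4.70 and 2.97 CPM in the Scx-deleted libraries. The groups overlapped, since Scx-deleted 4 was the highest of all 8. The log2 difference was -0.21 ± 0.18 (SE; edgeR quasi-likelihood F test, Benjamini-Hochberg adjusted p = 0.411). It was -0.08 without Scx-positive 5, -0.10 without Scx-deleted 3 and -0.42 without Scx-deleted 4, none of them past the threshold. Col2a1, the chain of cartilage type II collagen and no member of the set, had 7 to 18 counts per library and did not pass the test either, at 0.584 ± 0.103 and 0.516 ± 0.221 CPM (SD, n = 4 each).

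**Figure D1:**
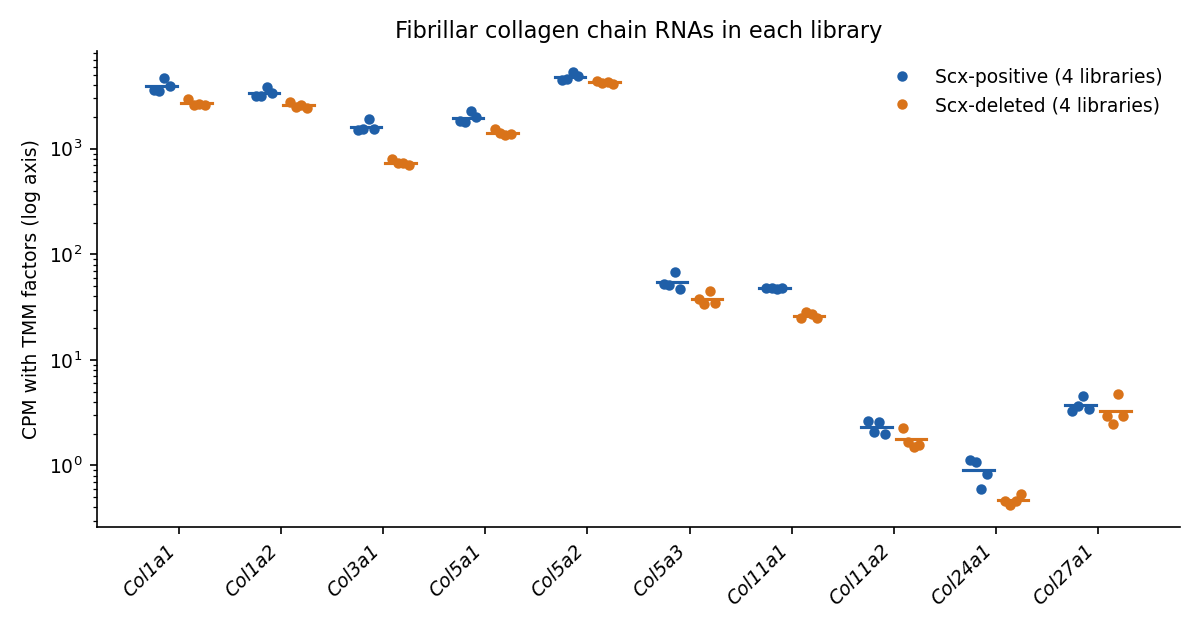
CPM of each of the 10 chains in each library (points, log axis), with the group mean as a short line, for 4 Scx-positive and 4 Scx-deleted libraries. The groups are apart for 8 chains and overlap for Col11a2 and Col27a1.

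**Figure D2:**
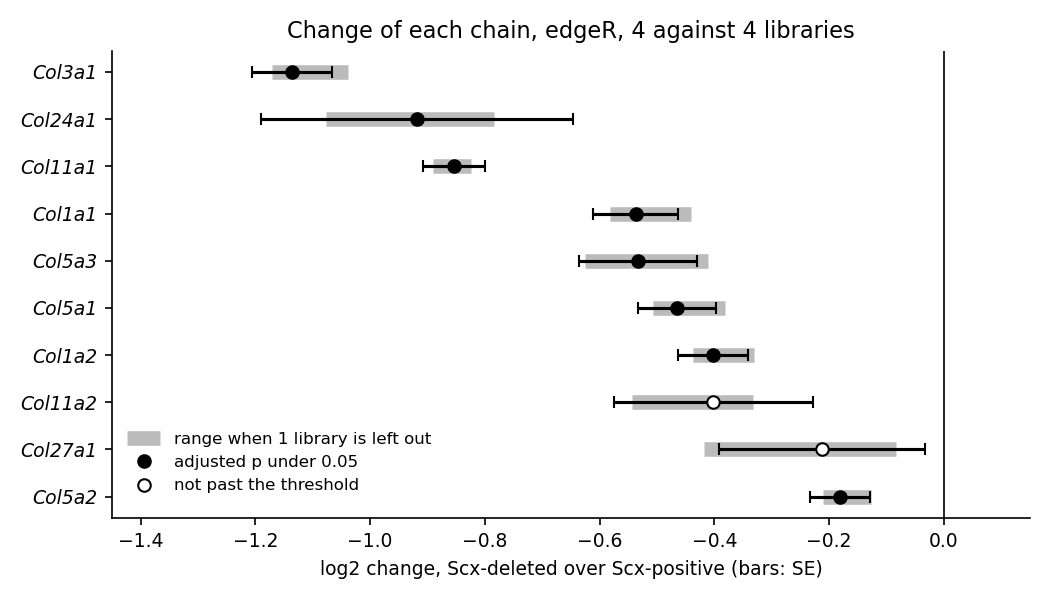
Log2 change of each chain in Scx-deleted over Scx-positive cells with its standard error as a bar (filled points, adjusted p under 0.05 in edgeR; open points, not past it), over a grey band for the range when 1 library is left out. All 10 lie below 0, from -0.18 for Col5a2 to -1.14 for Col3a1.

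The 10 chains took 1.58% ± 0.139 of all gene counts when Scx was present and 1.17% ± 0.0497 when it was deleted (SD, n = 4 each). The make-up of that share moved as well. Col3a1 supplied 10.2% of the chains' counts in Scx-positive and 6.26% in Scx-deleted libraries, and Col5a2 30.5% and 36.2%. The other abundant chains moved less, with Col1a1 at 24.7% and 23.0%, Col1a2 at 21.5% and 21.9%, and Col5a1 at 12.4% and 12.1%. These shares are of counts, not divided by transcript length.

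Per kilobase of the union of annotated exons, the order of levels in Scx-positive libraries was Col1a1 (597 CPM per kb), Col5a2 (502), Col1a2 (273), Col5a1 (232) and Col3a1 (165). Col5a3 (8.04) and Col11a1 (3.73) followed at a far lower level, and Col11a2 (0.337), Col27a1 (0.286) and Col24a1 (0.119) were lowest. The Scx-positive ranges of Col1a1 (539 to 707 CPM per kb) and Col5a2 (468 to 551), of Col1a2 (254 to 310) and Col5a1 (211 to 268), and of Col11a2 (0.286 to 0.384) and Col27a1 (0.249 to 0.352) overlapped, so these neighbours in the order were not separated by their spread.

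In Scx-deleted libraries Col5a2 (443 CPM per kb) had a higher mean than Col1a1 (412), with ranges that overlapped (430 to 459 and 395 to 451), and Col3a1 was at 75.0 CPM per kb. The length used moves this order. Per kilobase of the longest annotated transcript, Col5a2 led in both groups, at 726 and 641 CPM per kb, ahead of Col1a1 at 661 and 456 and Col1a2 at 635 and 480. By that measure Col3a1 went from rank 125 to rank 446 among 13024 tested genes with a length, and Col5a2 from rank 14 to rank 21.

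Ratios between chains were taken within each library, so that depth and scaling cancel. Of 8 ratios, 6 differed between groups at an adjusted p under 0.05 by a 2-sided exact permutation test with Benjamini-Hochberg adjustment over the 8, and for these 6 the groups did not overlap. They were 3 of the 5 ratios within a collagen type (Col1a1 over Col1a2, Col5a1 over Col5a2 and Col11a1 over Col11a2) and all 3 between types. The smallest p that 4 libraries against 4 allow is 0.0286, from 70 splits, and each of the 6 reached it, which gives an adjusted p of 0.0381 for each by the exact permutation test. At that smallest p, a ratio can pass only if most of the 8 reach it too. With any 1 library left out, all 6 kept their direction. An adjusted p under 0.05 remained for 5 of them without Scx-deleted 5 and for 0 without any of the other 7 libraries. Leaving out a library cannot make groups overlap that were apart. With 3 libraries against 4, however, a split other than the observed one can give as large a difference, which raises p. Too few ratios may then reach the smallest p for any to pass. A call lost in this way is therefore not a sign of overlap.

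The ratio of Col1a1 to Col1a2 counts was 1.14, 1.11, 1.20 and 1.16 in the Scx-positive and 1.07, 1.04, 1.02 and 1.07 in the Scx-deleted libraries. It was the steadiest of the within-type ratios, with an SD of 0.0497 on the log2 scale in the Scx-positive group, where Col1a1 and Col1a2 alone varied with SDs of 0.179 and 0.132. The log2 difference was -0.13 ± 0.03 (SE). Per kilobase of the longest transcript the mean ratio was 1.04 and 0.948, and per kilobase of union exons 2.18 and 1.99, so the size of the ratio depends on the length used and its change between groups does not.

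Within type V, Col5a1 over Col5a2 was 0.406, 0.389, 0.431 and 0.407 in the Scx-positive and 0.352, 0.341, 0.312 and 0.337 in the Scx-deleted libraries, a log2 difference of -0.28 ± 0.05 (SE). Col5a1 thus fell further than its partner. Col5a3 over Col5a1 had a mean of 0.0278 and 0.0268 and differed by -0.06 ± 0.14 (SE) on the log2 scale, which is not past the threshold (exact permutation test, adjusted p = 0.657). Col5a3 over Col5a2 had a log2 difference of -0.34 ± 0.12 (SE) and did not pass either (adjusted p = 0.0653 by the exact permutation test), with Scx-deleted 4 at 0.0105 above Scx-positive 6 at 0.00971.

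Within type XI, Col11a1 over Col11a2 was 18.0, 22.8, 18.0 and 24.6 in the Scx-positive and 10.9, 16.8, 17.9 and 15.9 in the Scx-deleted libraries. The groups were separate by a narrow margin, and the ratio carries the counting error of Col11a2. The log2 difference was -0.45 ± 0.20 (SE).

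Between types, Col3a1 over Col1a1 was 0.415, 0.431, 0.412 and 0.393 in the Scx-positive and 0.268, 0.280, 0.275 and 0.267 in the Scx-deleted libraries. The log2 difference of -0.60 ± 0.03 (SE) was the largest of the 8 in size, and Scx-positive 5 did not stand out. Col5a1 over Col1a1 was 0.505, 0.507, 0.490 and 0.508 in the Scx-positive and 0.524, 0.545, 0.510 and 0.531 in the Scx-deleted libraries, a log2 difference of 0.07 ± 0.02 (SE) and the single rise among the ratios. Col11a1 over Col5a1 had a log2 difference of -0.39 ± 0.12 (SE), with Scx-positive 5 (0.0204) close to the highest Scx-deleted library (0.0201).

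**Figure D3:**
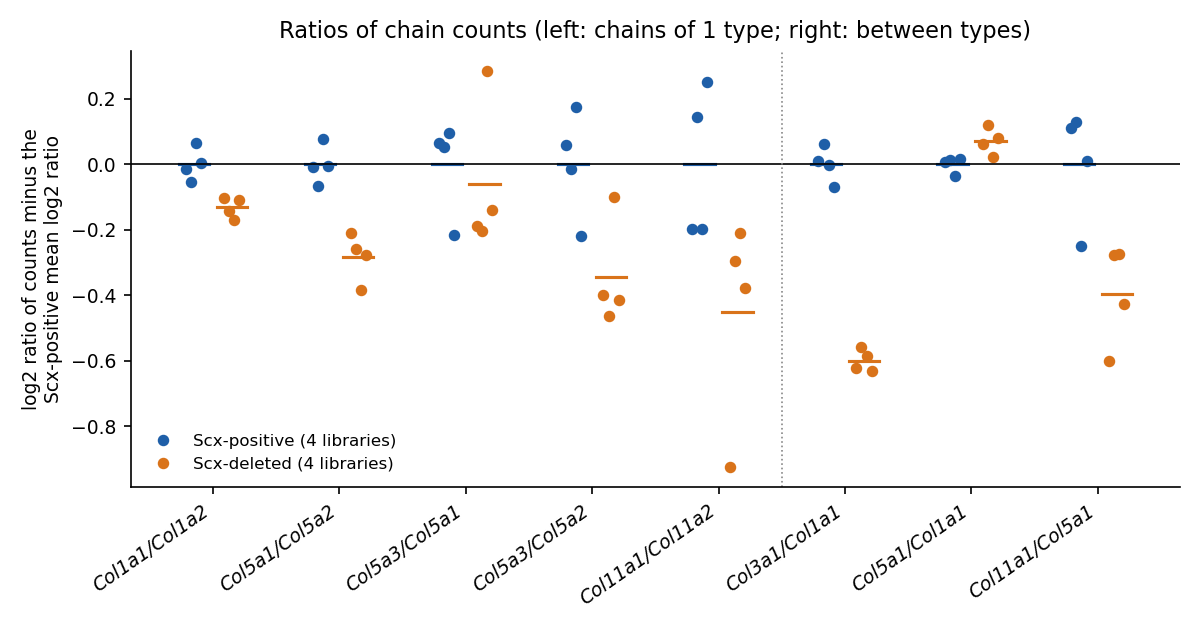
Log2 ratio of the counts of 2 chains in each library (points) minus the mean log2 ratio of the 4 Scx-positive libraries, with group means as short lines, for 5 pairs within a collagen type and 3 between types. The groups are apart in 6 of the 8 and overlap for Col5a3 over Col5a1 and Col5a3 over Col5a2.

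Profiles over the 8 libraries were also compared as the root mean square difference of log2 CPM centred on each gene's own mean, among the 9493 genes whose mean reached 10 CPM. The genes most like Col1a1 were Ephb2 (0.0438), Zyx (0.0450), Col5a1 (0.0452), Fscn1 (0.0467) and Tnrc18 (0.0477). Col5a1 was thus rank 3, while Col1a2, the partner chain, was rank 23 at 0.0748. The genes most like Col3a1 were Gas1 (0.0973), Smpd3 (0.109), Epha1 (0.113), Hpgd (0.118) and Agtr1a (0.147). No other fibrillar chain was among those 5, and the nearest was Col11a1 at rank 28. These measures describe 8 libraries that share the group difference and carry no test.

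Col3a1 and Col5a2 lie side by side on chromosome 1, on opposite strands and 24614 bases apart, and had log2 changes of -1.14 and -0.18. Of the other nearest tested genes on each side of the chains, Gulp1 (-0.44, before Col3a1) and Rnpc3 (-0.31, before Col11a1) fell. Olfm1 (0.33, after Col5a1), Brd2 (0.18, after Col11a2) and Akna (0.29, after Col27a1) rose beside chains that fell or did not pass the test. The neighbours of Col1a1, Col1a2, Col5a3 and Col24a1 were not called.

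Genes that act on fibrillar collagens were counted in lists ordered along the route of the protein, to be read beside the 14.5% of all tested genes that fell, the 14.0% that rose and their median log2 change of -0.01. The lists were not tested as groups. Of 18 genes of procollagen hydroxylation and folding, 8 fell and 0 rose, with a median of -0.11. P4ha3, a catalytic subunit of prolyl 4-hydroxylase, went from 11.6 ± 0.756 to 6.32 ± 1.42 CPM (SD, n = 4 each), which is -0.87 ± 0.12 (SE) on the log2 scale. Creb3l1, a transcription factor of the secretory pathway, changed by -0.48, the collagen chaperone gene Fkbp10 by -0.33 and P3h4, of the prolyl 3-hydroxylase family, by -0.32. Of 9 secretion genes, 1 fell, the COPII coat gene Sec24d (-0.21), and 0 rose. Leaving out Scx-positive 5 gave 2 lower and 1 higher among the secretion genes, and leaving out Scx-positive 3 gave 1 higher.

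In the list for propeptide removal 7 of 10 genes could be tested, and 5 fell and 0 rose. The procollagen N-proteinase genes Adamts3 and Adamts2 changed by -1.31 ± 0.18 and -0.55 ± 0.09 (SE), the C-proteinase gene Tll1 by -0.43 and the enhancer Pcolce by -0.20. Adamts3 stood at 4.03, 3.59, 5.55 and 3.19 CPM in the Scx-positive and 1.87, 1.64, 1.68 and 1.48 CPM in the Scx-deleted libraries. Without Scx-deleted 3 or Scx-deleted 5 the count that fell was 3. Of 6 cross-linking genes 3 fell and 0 rose, namely Loxl2 (-0.45) and Lox (-0.25), both lysyl oxidases, and the transglutaminase gene Tgm2 (-0.42).

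Among genes for proteins on the fibril surface and for fibril growth, 11 of 15 tested were lower and 0 higher, with a median of -0.58. Comp, which binds collagen and aids fibril assembly, changed by -1.57 ± 0.14 (SE), and its Scx-positive libraries ranged from 33.6 to 56.3 CPM with Scx-positive 5 highest. Col14a1, a fibril-associated collagen, changed by -1.25. The small leucine-rich proteoglycan genes Ogn and Dcn changed by -1.20 and -1.01. Of 8 tested collagen receptor and uptake genes, 1 fell, the discoidin domain receptor gene Ddr1 (-0.29), and 0 rose, which is near the 14.5% of all tested genes that fell. Without Scx-positive 5, 1 gene of each of these lists was higher. The number of receptor genes that fell was 2 with DESeq2 and without Scx-positive 2, 3 or 5 or Scx-deleted 4.

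The degradation list went the other way, with 7 of 12 tested genes higher, 1 lower and a median of 0.24. Mmp10 rose by 2.23 ± 0.11 and the collagenase gene Mmp13 by 2.05 ± 0.19 on the log2 scale (SE). Mmp3 rose by 1.28 and Ctsk, a cysteine protease that cuts triple-helical collagen, by 0.80. The list also holds protease inhibitors: Timp1 was among the 7 that rose (0.11) and Timp3 was the 1 that fell (-0.15), both named after their values were seen. The 1 lower call was lost without Scx-deleted 2 or 5.

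Among 12 tested transcription factors tied to collagen genes, 3 fell and 2 rose, where 14.5% of all tested genes fell and 14.0% rose. The deleted gene Scx is 1 of the 3. Runx2 (-0.16) fell beside Scx, as did Sp1 (-0.14), named after its value was seen, and Sox9 (0.23) and Cebpb (0.31) rose. These calls were fragile: the count that fell was 1 without Scx-positive 2 or Scx-deleted 2, 4 or 5, and the number higher dropped to 1 without Scx-positive 2 and to 0 without Scx-positive 3 or 6 or Scx-deleted 3, 4 or 5.

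**Figure D4:**
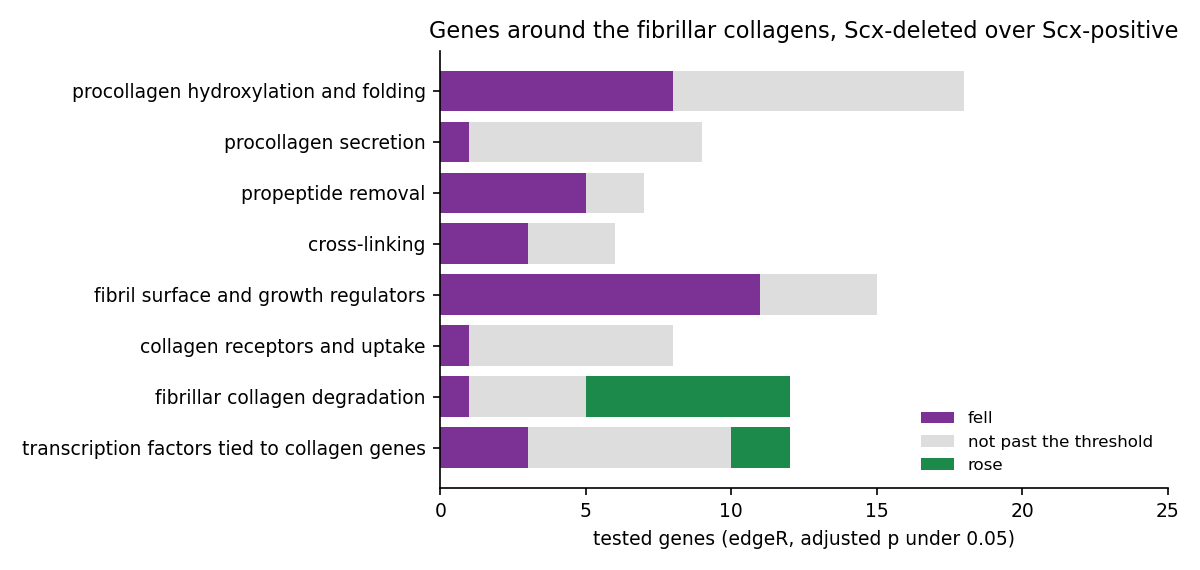
Number of tested genes that fell, rose or did not pass the threshold in Scx-deleted over Scx-positive cells (edgeR, adjusted p under 0.05), for 8 lists of genes around the fibrillar collagens. The fibril surface list has 11 of 15 lower and the degradation list 7 of 12 higher.

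Markers of other cell types moved with the groups in part, where 14.5% of all tested genes fell and 14.0% rose. Of 6 tendon sheath and lining markers 4 fell (Pi16, Prg4, Cd55 and Sema3c) and 1 rose (Clic5, log2 change 1.22). Their summed level ranged from 534 to 597 CPM in Scx-positive and from 367 to 416 CPM in Scx-deleted libraries. Of 8 cartilage markers 4 could be tested, 1 fell and 1 rose, with sums of 20.0 to 23.7 and 21.8 to 24.8 CPM, and Acan, Matn1, Col9a1 and Cnmd had at most 2 counts in any library. The 6 bone markers had at most 10 counts each. Of 7 mural cell markers 2 fell and 2 rose, with sums of 688 to 820 and 906 to 928 CPM. Of 6 fat markers 5 could be tested, 2 rose (Fabp4 and Plin4) and 0 fell, with sums of 93.1 to 110.4 and 135 to 148 CPM. Of 7 endothelial markers 3 could be tested, 1 fell (Tek) and 1 rose (Kdr), with sums of 68.4 to 86.5 and 49.5 to 54.2 CPM. Of 7 macrophage and leukocyte markers 4 could be tested, 2 rose (Cd68 and Csf1r) and 0 fell, with sums of 20.1 to 22.8 and 23.2 to 26.8 CPM, while Ptprc was near 0. Of 5 Schwann cell markers 1 fell (S100b) and 0 rose. Of 6 skeletal muscle markers 2 could be tested, 1 fell (Acta1) and 0 rose. Of 4 keratinocyte markers 1 could be tested and was not called. Of the 8 tendon markers, which include Scx, Col1a1 and Col1a2, 6 fell and Kera was at 0 in every library. Some sums rested mainly on 1 or 2 genes. These were Sema3c and Prg4 for sheath and lining, Sox9 for cartilage, and Pdgfrb and Cspg4 for mural cells. Others were Fabp4 and Plin4 for fat, and Cd14 for macrophages and leukocytes. For the endothelial sum it was Tek, at 64.3 to 82.3 CPM in Scx-positive and 41.5 to 49.3 CPM in Scx-deleted libraries. Among the mural markers Pdgfrb and Cspg4 rose, while Rgs5 and Notch3 fell. The part of these cell types in the chains' changes was not tested.

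The authors' deposited table of their own comparison lists all 10 chains with a log2 fold change below 0 and 7 of them with an adjusted p under 0.05. In the authors' deposited table Col3a1 stands at -1.35, Col11a1 at -0.83, Col1a1 at -0.68, Col1a2 at -0.54, Col5a1 at -0.52, Col5a3 at -0.49 and Col5a2 at -0.23. Col24a1 has -0.91 in the authors' deposited table with an adjusted p of 0.0766, and Col11a2 (-0.27) and Col27a1 (-0.17) are not called there either. For all 5 abundant chains the authors' deposited table gives larger falls than the edgeR fit of the count table, from Col3a1 (-1.35 against -1.14) and Col1a1 (-0.68 against -0.54) to Col5a1 (-0.52 against -0.47) and Col5a2 (-0.23 against -0.18). DESeq2 run on the count table gave -1.13 for Col3a1, -0.53 for Col1a1, -0.40 for Col1a2, -0.46 for Col5a1 and -0.18 for Col5a2.

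The mean normalized count in the authors' deposited table was not the mean of the deposited counts. It was 1.26 times that mean for the median tested gene, but 2.27 times for Col5a2, 1.86 for Col1a2, 1.81 for Col1a1, 1.48 for Col3a1 and 1.37 for Col5a1, and 1.08 to 1.13 times for the 5 scarcer chains. The ratio of Col5a2 in the authors' deposited table was above that of 96.5% of tested genes. Over 10 bins of rising count the median ratio went from 1.23 to 1.38. Col5a2, Col1a2, Col1a1 and Col3a1 lay above the median of their bin, and Col5a1 and the 5 scarcer chains below it. The cause was not tested.

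**Figure D5:**
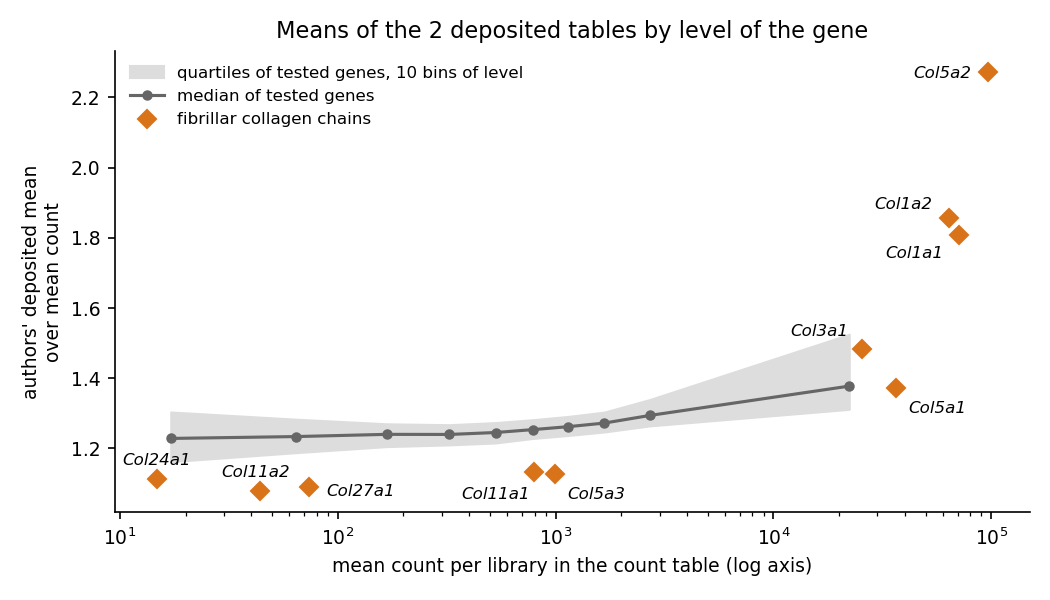
Mean normalized count in the authors' deposited table divided by the mean count of the count table, against the mean count (log axis), for the 10 chains (diamonds) and for tested genes in 10 bins (median line, quartile band). Col5a2 at 2.27, Col1a2 at 1.86 and Col1a1 at 1.81 lie above the band, and the 5 scarcer chains below the median line.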

How the data were processed

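The 8 libraries, 4 per genotype, came from cultured mouse tail tendon fibroblasts and were grouped by the labels. The submitters' processing notes name STAR, DESeq2, FastQC and the build mm10. What each tool did, its version, the counter, the annotation and whether strand was used is information not given in the sources used here, so counts of overlapping or near-identical genes are uncertain. The authors deposited raw whole-number counts per gene symbol, and these fed every fit. Rows for reads in no feature (7.44% to 8.67% of a library) and for ambiguous reads (0.490% to 0.567%) were left out. The authors also deposited a comparison table, which holds a mean normalized signal, log2 fold changes with errors, a test statistic (a score) and p-values, per the file headers. Its direction was taken from the sign against the counts, and its columns with no genotype in the name were not used.

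Counts were fitted in R 4.3.3 with edgeR 4.0.16: filterByExpr (minimum count 10, total 15) kept 13125 genes, TMM factors scaled them, and the quasi-likelihood F test compared the groups with no other term. The p-values were adjusted over all tested genes by Benjamini-Hochberg, with 0.05 as threshold, and an SE is the log2 change over the square root of F. The fit was tested on simulated data. Ratios used raw counts. Of the symbols, 24490 matched GENCODE mouse release 21 (GRCm38), and 8 of the 10 chains matched the RefSeq promoter table. No pair of libraries in a group agreed within sampling noise.

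The members, lists and tests were chosen with earlier results of these data known. The text names all 10 chains, Scx, Col2a1, up to 4 called genes of smallest p per list, called neighbours, and the 5 genes most like Col1a1 and Col3a1, but no predicted genes or sex-linked markers. Alternatives were other scalings (RLE, upper quartile), filters (none, or 5 CPM in 4 libraries) and tools (DESeq2 1.42.0, limma-voom of limma 3.58.1), the replicate number as a block, a correction for GC content and length, 5 counts added to each chain of a ratio, a share without the 100 highest other genes, the longest transcript as length, and each library left out.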

Additional observations from a re-analysis of the deposited data

Results flagged for a closer look

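In 6 of 38 groups of 4 values checked, a library lay far from the others of its group, where chance alone gives about 1 in 20 groups. Scx-positive 5 was high for Col3a1, at 1914 CPM where the rest of its group had 1495 to 1534 CPM, and low for Col5a1 over Col1a1, at 0.490 against 0.505 to 0.508. Scx-deleted 2 was high for Col1a1, at 2961 CPM against 2594 to 2637 CPM. Scx-deleted 4 was high for Col5a3 over Col5a1, at 0.0338 against 0.0240 to 0.0251, and for Col5a3 over Col5a2, at 0.0105 against 0.00819 to 0.00857. Scx-positive 6 was low for Col5a3 over Col5a1, at 0.0239 against 0.0287 to 0.0296. Ratios that share a chain are not independent of each other.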

How the results depend on the processing

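Col1a1, Col1a2, Col3a1, Col5a1, Col5a3 and Col11a1 kept their call in all 16 alternative settings, and no result changed direction. With DESeq2 Col24a1 had a log2 change of -0.93 (adjusted p = 0.0623) and 2 receptor genes fell. Without the 100 highest other genes the share was 1.88% and 1.38%. The filter of 5 CPM removed Col11a2, Col24a1 and Col27a1, which gave no value there. The correction for GC content and length called 2823 genes higher and 2163 lower, against 1842 and 1902, and upper-quartile scaling called 1539 higher and 2288 lower, or 40.2% of calls higher against 49.2%. By the longest transcript the Scx-positive level was 635 CPM per kb for Col1a2, 291 for Col3a1, 726 for Col5a2, 6.20 for Col11a1 and 0.489 for Col27a1.

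With the replicate number as a block, Col27a1 had a log2 change of -0.45 (adjusted p = 0.0369 by edgeR). The counts over all genes were 1676 lower and 1561 higher. Number 4 occurs only among Scx-deleted and number 6 only among Scx-positive libraries, so these libraries do not inform the blocked group difference. It rests on numbers 2, 3 and 5. Scx-deleted 4 was the highest library for Col27a1, at 4.70 CPM, and leaving it out without a block gave -0.42. Deviations of libraries with the same number correlated at -0.06 (number 2), 0.156 (number 3) and 0.0568 (number 5). Pairs across the groups with different numbers gave -0.227 to 0.143. Whether a shared number marks a shared animal or culture is not given in the labels and was not tested. The block changed no other call among the chains.

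Over the fits that leave out each library in turn, the chains that fell numbered 6 to 9. Log2 changes ranged from -0.21 to -0.13 for Col5a2, from -1.08 to -0.78 for Col24a1, from -0.54 to -0.33 for Col11a2 and from -0.42 to -0.08 for Col27a1. Ratios kept their direction, with log2 differences of -0.15 to -0.11 for Col1a1 over Col1a2, -0.31 to -0.25 for Col5a1 over Col5a2, -0.53 to -0.29 for Col11a1 over Col11a2, -0.62 to -0.58 for Col3a1 over Col1a1, 0.0537 to 0.0861 for Col5a1 over Col1a1 and -0.48 to -0.33 for Col11a1 over Col5a1. With 3 libraries against 4 a split other than the observed one can give as large a difference. Adjusted p-values of these 6 ratios by the exact permutation test ran from 0.0457 to 0.131. Only without Scx-deleted 5 did 5 of them stay under 0.05. List counts ranged from 1 to 2 lower and 0 to 1 higher for receptors and for secretion, 3 to 6 lower for propeptide removal, 0 to 1 lower for degradation, 0 to 1 higher for the fibril surface, and 1 to 3 lower and 0 to 2 higher for transcription factors. Col11a2, Col24a1 and Col27a1 had 8 to 114 counts per library, and whether depth set their calls was not tested.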
